A study of Mus musculus with 42 samples.

Results

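The cytosolic ribosomal proteins are the protein subunits of the ribosomes that translate nuclear-encoded messages. Their genes were taken as the protein-coding rows whose symbol is Rpl or Rps followed by a number, with a short letter or digit ending allowed, plus Rplp0, Rplp1, Rplp2 and Rpsa. Pseudogene symbols were left out. This gave 82 of 37410 genes in the table of the lateral habenula (LHb) and 83 of 40905 genes in the table of 5 other mouse brain regions. The 83 comprise 43 genes of the large (60S) subunit, 31 of the small (40S) subunit, 3 of the stalk and 6 paralogs (Rpl3l, Rpl7l1, Rpl10l, Rpl22l1, Rpl39l and Rps27l). The LHb table holds the same genes except Rpl10l.

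Polyadenylated RNA of brain tissue was sequenced in 42 libraries, in 14 groups of 3. All mice had a forced swim test (FST) 2 days before they were killed, and some had gone through chronic restraint stress (CRS) while others were naive. The LHb groups were naive with low immobility (below 50 s), naive with high immobility (50 to 80 s), CRS with low immobility (50 to 110 s) and CRS with high immobility (above 110 s). A "high" naive mouse and a "low" CRS mouse therefore overlap in immobility. In the medial prefrontal cortex (mPFC), lateral hypothalamus (LH), nucleus accumbens (NAc), ventral hippocampus (vHippo) and ventral tegmental area (VTA), naive and CRS groups were sequenced, with no FST class in the labels. Strain, sex and age are not given in the sources used here. The labels do not say that libraries of a group are separate animals, so p-values measure the spread between libraries, which may be technical.

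Ribosomal proteins are made in step with each other, because a ribosome holds a copy of nearly every one of them. Most of their messages begin with a C followed by a run of pyrimidines, the terminal oligopyrimidine (TOP) tract, through which the mTOR pathway adjusts their translation. The data here are message levels and do not measure translation. In neurons, ribosomal protein messages are found in dendrites and axons as well as in the cell body.

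RefSeq start-site windows of build GRCm38.p6 were at hand for 63 of the 83 genes. A C followed by at least 4 bases that are each C or T was searched on the gene's own strand, and no other motif was searched. It lay exactly at the annotated start in 13 of the 63 genes (20.6%), against 3.01% of the 27025 genes in the RefSeq table. Within 5 bases of the start on either side it was found in 29 of the 63 genes (46.0%), against 21.2% of all genes. The windows below run from 10 bases before the annotated start through the 20 bases from it, with the tract in capitals. They are shown for some of the members named below for which a window was at hand. Those with and without a tract at the annotated start can thus be compared. Windows of other named members, such as Rpl10, Rplp0 and Rps9, are not shown. The share with a tract among those shown is therefore not that of all members.
Rps6, chr4:86857348-86857377, minus strand: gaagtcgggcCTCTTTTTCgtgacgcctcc
Rps15a, chr7:118116128-118116157, minus strand: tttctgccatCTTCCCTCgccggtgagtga
Rps27, chr3:90213629-90213658, minus strand: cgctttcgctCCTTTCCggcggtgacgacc
Rpl38, chr11:114668570-114668599, plus strand: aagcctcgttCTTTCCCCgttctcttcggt
Rps2, chr17:24720053-24720082, plus strand: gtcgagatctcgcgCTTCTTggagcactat
Rpl22, chr4:152325716-152325745, plus strand: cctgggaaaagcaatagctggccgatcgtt
Rpl37, chr15:5116603-5116632, plus strand: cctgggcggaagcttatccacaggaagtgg
Rps28, chr17:33824543-33824572, minus strand: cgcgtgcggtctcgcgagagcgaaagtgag
Rps6, Rps15a, Rps27 and Rpl38 carry the tract at the annotated start, and in Rps2 it begins 4 bases downstream. The Rpl22, Rpl37 and Rps28 windows hold none within 5 bases of the start. A missing match says only that these letters are not in the annotated window, and RefSeq lists a further start for Rpl22.

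Libraries held 53143878 to 81384893 counts. Ribosomal protein genes took 0.504% to 0.961% of the counts of a library. The LHb marker Gpr151 stood at 159 to 235 FPKM in LHb libraries and at most 0.928 elsewhere. Dopamine neuron markers (Slc6a3 and Th, summed) ran from 14.1 to 971 FPKM in VTA libraries. The lowest was VTA naive 2, which lay below the 43.3 FPKM of mPFC CRS 3 and also held 182 FPKM of the LH markers Pmch and Hcrt. VTA CRS 1 held 135 FPKM of these LH markers, and the other VTA libraries held at most 4.74. In LHb, 4 libraries held pancreas transcripts (481 to 752 FPKM summed over 24 markers, at most 2.25 in the others) and 3 held the choroid plexus transcript Ttr at 2797 to 6834 FPKM (at most 95.3 in the others).

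The members spanned a wide range of measured message levels, although their proteins are needed in nearly equal numbers. FPKM, a fragment count scaled to transcript length and library size, is a level per length. Whether it is even between genes with short transcripts or many genomic copies and other genes was not tested. In the LHb the level of the 77 genes other than paralogs ran from 1.67 ± 0.60 FPKM for Rps28 to 188 ± 17.5 FPKM for Rps3a1 (SD, n = 12 libraries), with a median over genes of 25.3 FPKM. In the 5 other regions it ran from 3.88 ± 1.95 FPKM for Rps28 to 196 ± 33.2 FPKM for Rps3a1 (SD, n = 30), with a median of 31.0 FPKM. The order was shared by both tables, with a Spearman rho of 0.977 across the 82 genes in both, as a description across genes. Across the 77 genes FPKM tended to be higher for longer transcripts, with a Spearman rho of 0.36 in the LHb and 0.28 in the other regions. Length here and below is the median over a gene's basic transcripts in GENCODE vM21. It was 5130 nt for Rps15a and 3706 nt for Rps20, against a median of 774 nt over the 77 genes. Whether such lengths are those of the messages measured was not tested.

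The highest levels in the LHb after Rps3a1 belonged to Rpl4 (168 ± 6.62 FPKM), Rps6 (152 ± 9.72), Rpl8 (133 ± 8.48) and Rps15 (133 ± 11.7; SD, n = 12). In the other regions Rpl4 (174 FPKM, 126 to 234 over libraries), Rps15 (165 ± 32.9), Rplp1 (136 ± 29.9) and Rps6 (126 ± 31.9; SD, n = 30) followed. Rps6 is the small subunit protein phosphorylated by S6 kinases downstream of mTOR, and Rplp1 is an acidic stalk protein that helps recruit elongation factors. Among the stalk genes, Rplp0, which anchors the stalk, stood at 92.7 ± 10.1 FPKM in the LHb and Rplp1 at 100 ± 17.5, while Rplp2, the partner of Rplp1, stood at 11.1 ± 1.72 (SD, n = 12).

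The lowest levels in the LHb other than paralogs belonged to Rps28 (1.67 FPKM), Rpl39 (2.40 ± 0.53), Rps27 (3.09 ± 1.31) and Rps19 (3.24 ± 0.56; SD, n = 12). Rps19 is the subunit most often mutated in human Diamond-Blackfan anaemia. Short messages and messages with many processed copies in the genome are both found here, and whether their low values are true levels was not tested. Rows named as ribosomal protein pseudogenes held a further 6.93% to 8.96% of the count of the members in a library. For single genes the part in copies could be larger. In LHb libraries Rpl17 held 5.4% to 8.4% of its sum with its pseudogene rows. Rps27 held 21.8% to 54.6% of its sum with its retrogene row Rps27rt there. In addition, 13 members in the LHb table and 15 in the other overlap a further protein-coding gene, among them Rpl3, Rps28, Rpl5 and Rps25. Whether the counting used strand is not stated, so reads of such pairs cannot be told apart.

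**Figure D1:**
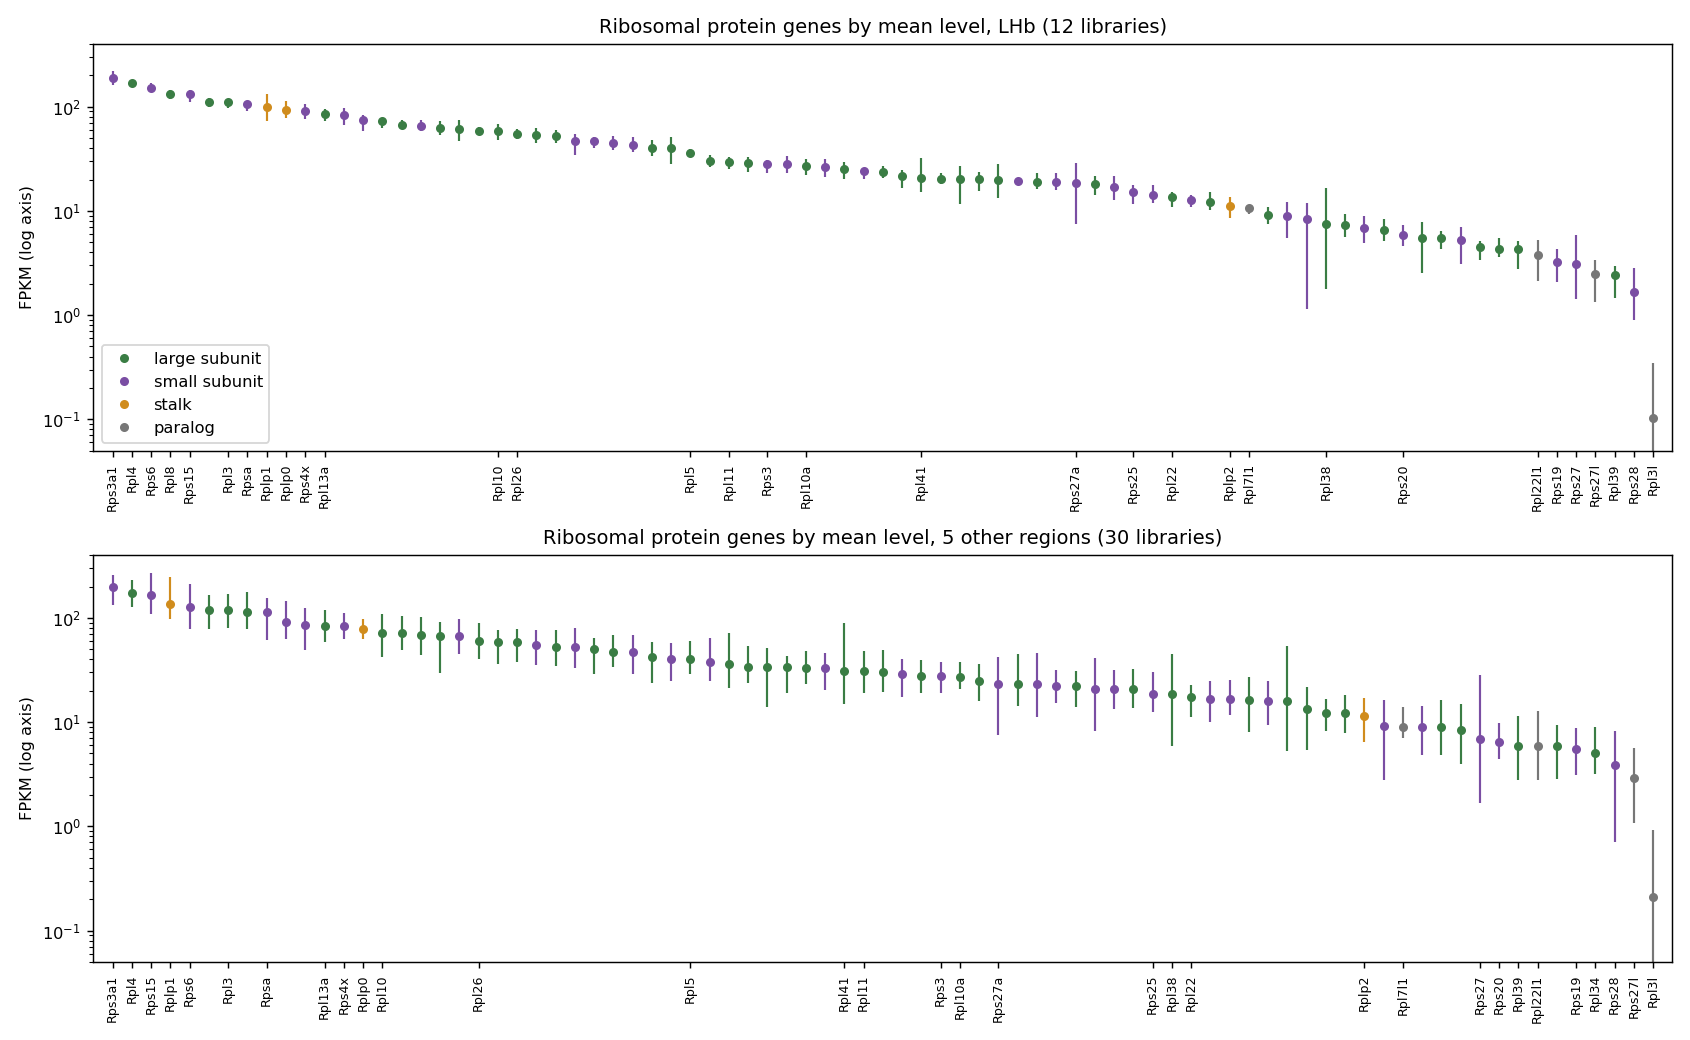
Mean FPKM (log axis) of each ribosomal protein gene in the LHb (top, 12 libraries) and in the 5 other regions (bottom, 30 libraries). Points are means, lines run from the lowest to the highest library and leave the axis where a library is at 0, and colours give subunits; Rpl39l and Rpl10l lie below the axis, and names are given for a fixed set and for the highest and lowest levels. Rps3a1 and Rpl4 lead both panels and Rpl3l, the muscle paralog, lies far below the rest.

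Of the paralogs, Rpl7l1 (10.6 ± 0.62 FPKM), Rpl22l1 (3.79 ± 0.86) and Rps27l (2.49 ± 0.53) were measured in every LHb library (SD, n = 12). Rpl3l, which replaces Rpl3 in heart and skeletal muscle, had a mean of 0.10 FPKM in the LHb against 110 FPKM for Rpl3. Rpl10l, which stands in for the X-linked Rpl10 in male germ cells, had a count of 0 in all 30 libraries of the other regions. Rpl39l, the paralog of Rpl39, had a count of 0 in 28 of those 30. A low-count filter removed Rpl39l and Rpl10l, leaving 81 members tested (80 in LH, where Rpl3l was removed as well).

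Region was the only comparison in which members passed the test. Over the 15 naive libraries of the 5 regions other than the LHb, 2 of 81 members differed between regions (2.47%), against 26.8% of all 22877 genes tested (edgeR quasi-likelihood F test, adjusted p below 0.05). They were Rps6 (adjusted p = 0.00139) and Rps20 (adjusted p = 0.0499). At an unadjusted p below 0.05 there were 8 members, against 38.4% of all genes. Rpl22, Rps2, Rps15a, Rpl6, Rps27, Rps27l and Rps9 came next, with edgeR adjusted p between 0.0524 and 0.135. Of the other lists, 7 of 23 other TOP and elongation genes, 4 of 33 initiation factors, 13 of 52 ribosome biogenesis genes, 7 of 78 mitochondrial ribosomal protein genes and 14 of 88 genes of oxidative phosphorylation passed.

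Rps6 was highest in the VTA and LH. In naive mice it read 137, 210 and 187 FPKM in the VTA libraries and 134, 156 and 129 FPKM in the LH libraries. It read 94.4, 127 and 123 FPKM in NAc, 107, 90.4 and 105 FPKM in vHippo, and 88.1, 78.8 and 107 FPKM in mPFC. Every naive VTA and LH library thus lay above every naive library of NAc, vHippo and mPFC. The means were 178 ± 37.5 FPKM in VTA, 140 ± 14.3 in LH, 115 ± 17.8 in NAc, 101 ± 9.12 in vHippo and 91.2 ± 14.1 in mPFC (SD, n = 3), a 1.95-fold range.

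Neighbours in the order of Rps6 overlapped in its FPKM, except LH and NAc. Rps6 passed in each of the 15 fits that left a naive library out, with an adjusted p between 6.28e-04 and 0.00826 (edgeR). This includes the fit without VTA naive 2, the VTA library with the fewest dopamine markers and the highest Rps6, where the adjusted p was 0.00582. In the 15 CRS libraries, an alternative added after seeing the data, the means stood at 160 ± 9.10 FPKM in VTA, 150 ± 21.6 in LH, 120 ± 6.98 in NAc, 106 ± 25.9 in mPFC and 104 ± 3.30 in vHippo (SD, n = 3). The test across regions did not pass there (edgeR adjusted p = 0.0656). In the LHb, whose table was normalised separately, Rps6 ran from 140 to 168 FPKM.

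Rps20, a small subunit protein of the head of the 40S, differed less. Its naive means were 7.51 ± 0.52 FPKM in VTA, 6.99 ± 0.79 in LH, 6.65 ± 0.48 in mPFC, 6.13 ± 0.14 in NAc and 5.45 ± 0.56 in vHippo (SD, n = 3). The VTA libraries lay above the NAc libraries and these above the vHippo libraries, without overlap, while mPFC overlapped VTA, LH and NAc. Rps20 passed in 2 of the 15 fits that left a library out, with an adjusted p of up to 0.146, and in the CRS libraries its adjusted p was 0.530 (edgeR).

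Rpl22, a large subunit protein with a paralog, Rpl22l1, lay just outside the threshold (edgeR adjusted p = 0.0524). It read 22.7, 21.2 and 22.8 FPKM in naive vHippo and 22.7, 21.5 and 22.1 FPKM in CRS vHippo. In both sets the vHippo libraries were above every library of the other 4 regions, whose highest values were 19.99 FPKM (mPFC naive 3) and 21.2 FPKM (VTA CRS 2). In the CRS libraries Rpl22 passed (edgeR adjusted p = 0.0174). Rps15a, of the small subunit, passed in the CRS libraries as well (edgeR adjusted p = 7.74e-04), but not in the naive libraries (adjusted p = 0.105). Its CRS means were 22.7 ± 2.66 FPKM in LH, 19.4 ± 2.26 in VTA, 14.05 ± 0.43 in vHippo, 13.9 ± 0.36 in mPFC and 10.8 ± 2.38 in NAc (SD, n = 3). Rps2 had naive means of 104 ± 12.02 FPKM in NAc and 102 ± 4.50 in vHippo against 72.2 ± 9.21 in VTA (SD, n = 3; edgeR adjusted p = 0.0595). That other members passed in the CRS than in the naive libraries was not tested for itself. In bulk tissue, fewer cells of a type and less RNA per cell cannot be told apart.

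**Figure D2:**
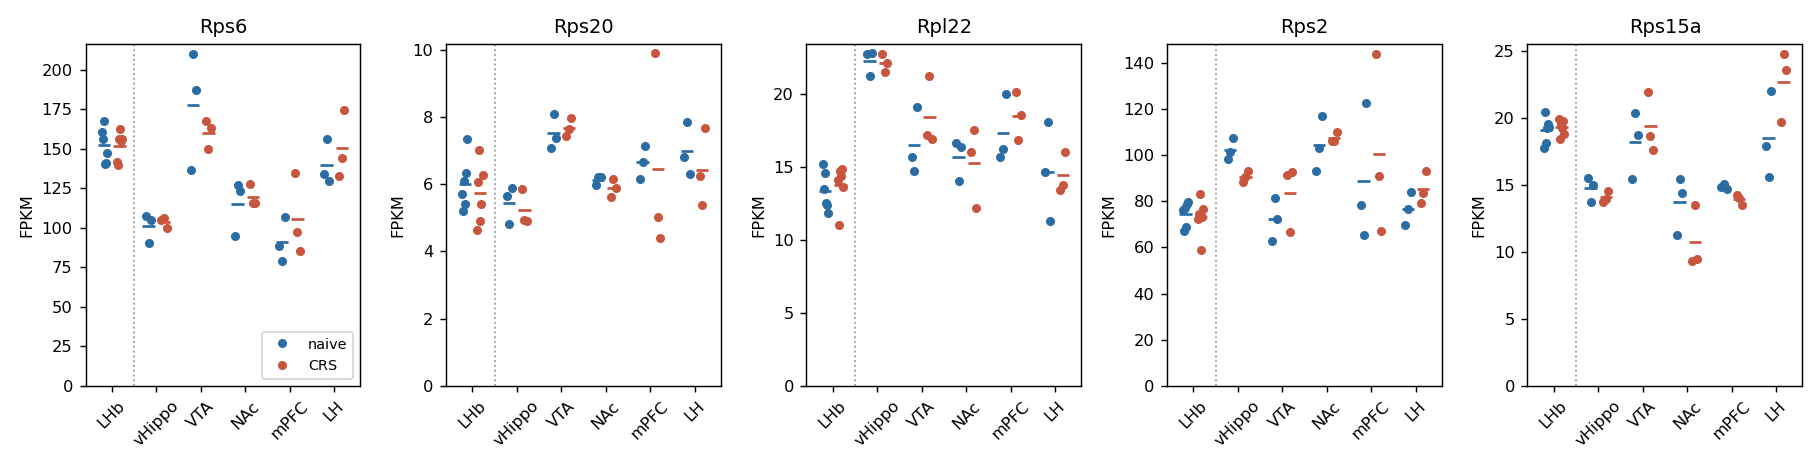
FPKM of 5 members in every library by region, naive in blue and CRS in red; short lines are means. The dotted line separates the LHb, which was in another table. Rps6 is highest in VTA and LH among the 5 regions, and Rpl22 is highest in vHippo.

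No member passed the test of chronic restraint stress in the LHb. Of 81 members tested, 0 passed an adjusted p of 0.05 (edgeR), against 1.17% of all 23266 genes. At an unadjusted p below 0.05 there were 2 members, against 12.7% of all genes. DESeq2 also called 0. The median log2 fold change of the members, CRS over naive with 6 libraries each, was -0.03, against -0.00 for all genes, with 22 members positive and 59 negative. The median was 0.03 without the 3 choroid plexus libraries and -0.10 without the 4 pancreas libraries, and without CRS low 1 alone it was 0.00 with 42 members positive, so its sign depends on which libraries are in. With all libraries in and an offset for transcript length it was 0.01, with 41 members positive. The 95% confidence interval of the fold change lay within a doubling or halving for 77 of 81 members.

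The members of smallest p in the LHb were Rps28, Rpl30 and Rps24. Rps28, a small subunit protein that overlaps Kank3 in the annotation, read 0.90, 0.93, 1.75, 1.40, 1.26 and 1.61 FPKM in the naive libraries and 1.44, 1.26, 2.30, 1.96, 2.85 and 2.36 FPKM in the CRS libraries. The groups overlapped, and the log2 fold change was 0.59 ± 0.21 (SE), with an edgeR adjusted p of 0.267. Without the pancreas libraries it was 0.48 and without the choroid plexus libraries 0.61. Rpl30, of the large subunit, had a log2 fold change of -0.27 ± 0.11 (SE; edgeR adjusted p = 0.352), and Rps24, of the small subunit, one of -0.16 ± 0.07 (SE; edgeR adjusted p = 0.399). The paralog Rpl7l1 had one of -0.12 ± 0.06 and, on the positive side, the stalk gene Rplp0 had 0.11 ± 0.08 and Rpsa of the small subunit 0.06 ± 0.06 (SE; edgeR adjusted p from 0.437 to 0.713). No member had CRS and naive LHb libraries that did not overlap, against 0.511% of all genes.

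Among related lists in the LHb under CRS, 0 of 23 other TOP and elongation genes and 0 of 33 initiation factors passed, where 1.17% of all genes did. Of the 52 ribosome biogenesis genes 2 rose, Mdn1 and Utp20, which act in the assembly of the large and small subunit. Of 78 mitochondrial ribosomal protein genes 1 fell, Mrps25, and 73 had a negative log2 fold change, with a median of -0.11. Mdn1, Utp20 and Mrps25 also passed, in the same direction, for high against low immobility in naive mice, as given below. Under CRS none of these 3 genes passed without the pancreas libraries, where the edgeR adjusted p was 0.573 for Mdn1, 0.352 for Utp20 and 0.273 for Mrps25. Their log2 fold changes there were 0.49, 0.52 and -0.60, against 0.55, 0.45 and -0.59 with all libraries. That fit has fewer libraries, and all genes called then numbered 2 instead of 273. Of 88 genes of oxidative phosphorylation 0 passed, with 85 negative and a median of -0.17. In this fit, with all libraries in and no length offset, the cytosolic members' median of -0.03 lay nearer to that of all genes. The medians of the other lists in the alternatives are not given here.

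Within the naive LHb, no member passed for high against low immobility by edgeR (0 of 81 at an adjusted p of 0.05), against 3.07% of all genes. At an unadjusted p below 0.05 there were 2, against 16.99% of all genes. DESeq2 called 1, Rpl37 (log2 fold change 0.48, adjusted p = 0.03616). Rpl37, a zinc-binding protein of the large subunit, read 6.35, 5.63 and 6.59 FPKM in low and 7.34, 9.25 and 8.31 FPKM in high libraries, with no overlap. Its log2 fold change by edgeR was 0.47 ± 0.15 (SE; adjusted p = 0.129), and 0.47 without the pancreas libraries (adjusted p = 0.489). The stalk gene Rplp1 had a log2 fold change of 0.48 ± 0.17 (SE; edgeR adjusted p = 0.168), and 0.37 without the pancreas libraries. Rps29, of the small subunit, had one of 0.50 ± 0.23 (SE; edgeR adjusted p = 0.302). On the other side, Rps6 had one of -0.13 ± 0.07 (SE; edgeR adjusted p = 0.341) and Rpl22 one of -0.19 ± 0.10 (SE; edgeR adjusted p = 0.341), and Rpl14, of the large subunit, one of -0.20 ± 0.11 (SE; edgeR adjusted p = 0.415). The groups did not overlap for 9 members (11.1%), against 21.0% of all genes. Of related lists, 3 of 52 ribosome biogenesis genes rose by edgeR: Mdn1 (log2 fold change 0.88, adjusted p = 0.00319), Utp20 (0.59, 0.0078) and Heatr1 (0.50, 0.0334). Mrps25 (-0.58, 0.00817), 1 of 78 mitochondrial ribosomal protein genes, and Eif4ebp2 (-0.36, 0.0224), 1 of 33 initiation factors, fell. In the TOP and elongation and oxidative phosphorylation lists 0 passed. Without the pancreas libraries only Mdn1 passed (0.95, edgeR adjusted p = 0.0489).

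Within the stressed LHb, no member passed for high against low immobility (0 of 81 at an adjusted p, 0 at an unadjusted p of 0.05, and 0 by DESeq2), against 0.0% of all genes by edgeR. The median log2 fold change was -0.01. With each library left out in turn it ran from -0.07 without CRS low 1 to 0.06 without CRS high 1, both choroid plexus libraries. The members of smallest p were Rplp2 (0.29 ± 0.16, SE), Rpl32 (0.25 ± 0.14) and Rps19 (0.33 ± 0.20) on the positive side, and Rps28 (-0.51 ± 0.29), Rps6 (-0.11 ± 0.07) and Rpl3 (-0.11 ± 0.07) on the negative side, each with an edgeR adjusted p of 1.0. The groups did not overlap for 1 member, Rpl3, against 7.67% of all genes. The test of the difference between the immobility effects in CRS and naive mice passed for 0 of 81 members, with 0 at an unadjusted p and 0 by DESeq2, against 0.202% of all genes. The members of smallest p there were Rps28 (-0.81 ± 0.42, SE), Rpl3 (-0.17 ± 0.09), Rpl37 (-0.37 ± 0.21), Rps19 (0.40 ± 0.28), Rps27l (0.54 ± 0.40) and Rpl14 (0.17 ± 0.16).

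In the 5 other regions no member passed the test of CRS. The edgeR test passed for 0 members in each region, against 0.0% of all genes in each. At an unadjusted p below 0.05 there were 8 members in VTA, 6 in vHippo, 1 each in LH and NAc, and 0 in mPFC. The shares of all genes at the same unadjusted p were 1.61% in VTA, 6.58% in vHippo, 9.38% in LH, 2.18% in NAc and 1.56% in mPFC. The VTA count was 18 without VTA naive 2 and 3 without VTA CRS 1, the libraries with LH markers. DESeq2 called 0 members in each. Over the 5 regions together 0 of 81 members passed, against 0.0206% of 24244 genes, with 1 at an unadjusted p (4.20% of all genes). The test of whether the CRS effect differed by region passed for 0 of 81, against 0.0% of all genes, with 1 at an unadjusted p (4.43% of all genes).

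No member passed, and the direction in which most members leaned differed between regions. The median log2 fold change, CRS over naive, was 0.19 in mPFC with 76 of 81 members positive, 0.13 in VTA with 67 of 81, 0.03 in LH with 50 of 80, 0.00 in NAc with 41 of 81 and -0.13 in vHippo with 17 of 81. The median of all genes lay between -0.01 and 0.01 in these 5 comparisons. The large and small subunits had similar medians, -0.12 and -0.13 in vHippo, 0.13 and 0.18 in VTA, and 0.22 and 0.19 in mPFC.

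Several of these medians rested on a single library. In mPFC, the median was -0.19 without CRS 1, with 5 of 81 members positive. In LH it was -0.14 without CRS 3, with 20 of 80 positive. In vHippo it was -0.04 without CRS 2, and in VTA 0.07 without naive 1, 0.24 without naive 2 and 0.08 without CRS 1. In NAc it ran from -0.09 without naive 1 to 0.10 without naive 3. Over the 5 regions together it was 0.04 with all libraries and -0.02 without mPFC CRS 1. The direction in mPFC, LH, NAc and the 5 regions together thus turned when 1 library was left out. Cell type markers stood apart in some of these libraries. In vHippo CRS 2 oligodendrocyte markers summed to 1171 FPKM, against 203 to 612 in the other vHippo libraries, astrocyte markers to 487 against 275 to 352, and microglia markers to 156 against 79.0 to 133. In mPFC naive 3, without which the mPFC median was 0.38, leptomeninges markers summed to 186 FPKM against 3.09 to 39.9 in the other mPFC libraries, and microglia markers to 238 against 105 to 162. The part of these cells in the shifts was not tested.

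**Figure D3:**
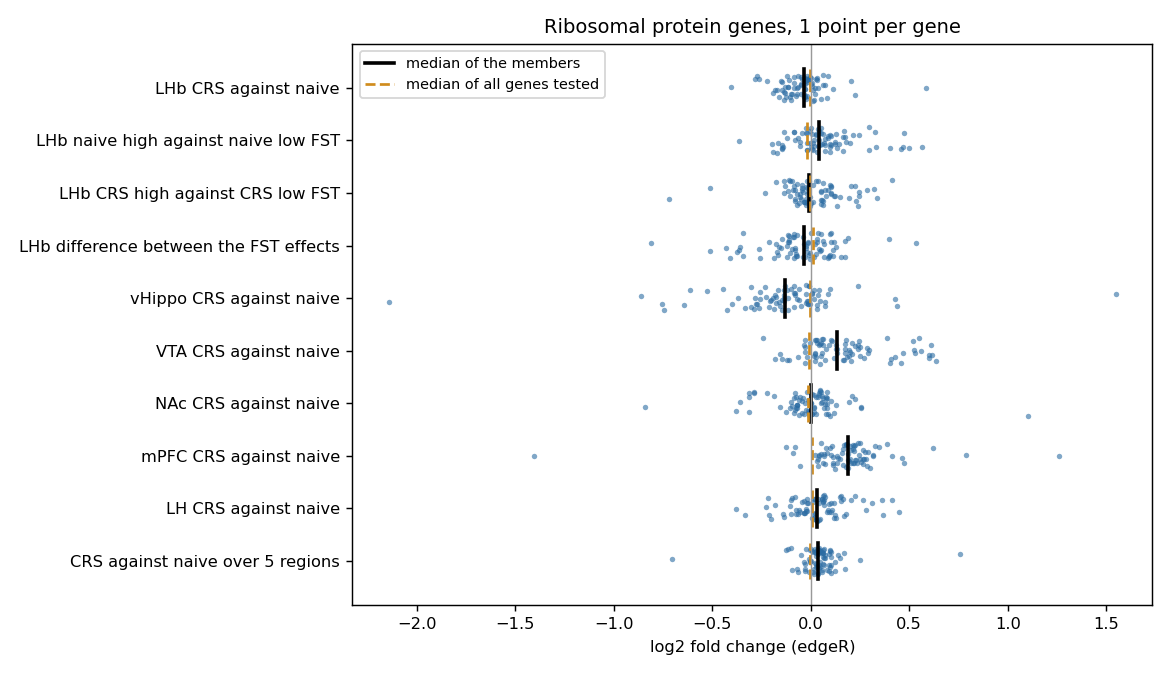
Log2 fold changes (edgeR) of the ribosomal protein genes in 10 comparisons, 1 point per gene; black lines are the median of the members and dashed lines the median of all genes tested. The mPFC and VTA clouds lie to the right of 0 and the vHippo cloud to the left, while no ribosomal protein gene passed the edgeR test.

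In mPFC CRS 1, ribosomal protein genes took 0.961% of counts, against 0.504% to 0.781% in the other 5 mPFC libraries. All 81 members lay above their mean over those other libraries there. In LH CRS 3 the share was 0.909%, against 0.661% to 0.717% in the other LH libraries, and 76 of 80 members lay above the mean of the others. The lowest shares in mPFC were those of naive 1 (0.504%), where 4 of 81 members lay above the mean of the others.

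Other genes with short transcripts moved in the same libraries. For genes under 700 nt other than the members (323 to 346 genes a region), the median deviation of a library from its region's mean was 0.58 on the log2 scale in mPFC CRS 1, where that of the members was 0.70. In mPFC naive 1 these values were -0.23 and -0.47, and in LH CRS 3 they were 0.18 and 0.29. Genes of at least 4000 nt had a median deviation of -0.28 in mPFC CRS 1 and 0.13 in mPFC naive 1. The signs of the members and of the short genes were alike in 35 of 42 libraries. The short genes were not filtered by gene type, so pseudogene rows of ribosomal proteins may be among them. The part of such rows in this likeness was not tested. With an offset for transcript length per library, the members' median fold change under CRS went from 0.19 to 0.07 in mPFC, from 0.13 to 0.08 in VTA and from -0.13 to -0.09 in vHippo. The part of transcript length in these shifts was not tested beyond this.

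**Figure D4:**
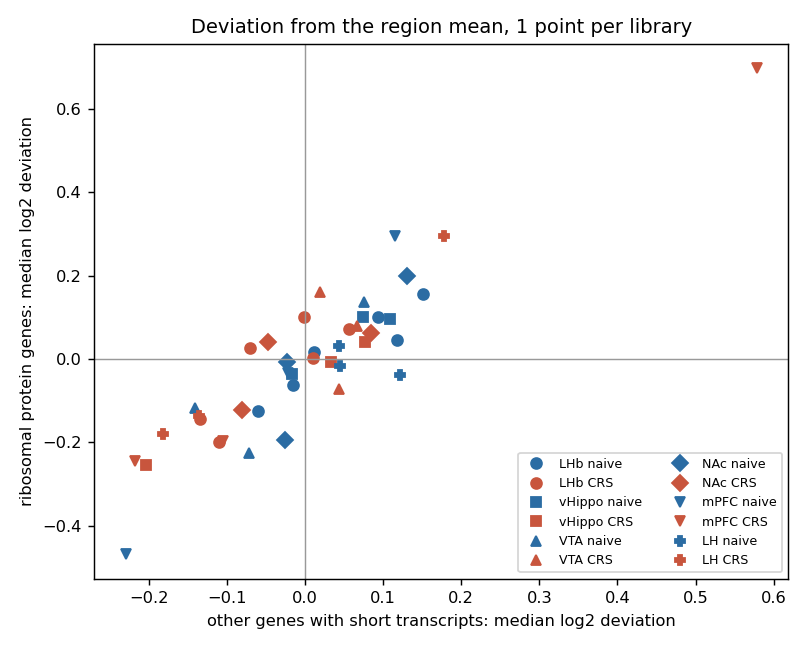
Median log2 deviation of the ribosomal protein genes from the mean of their region (vertical) against that of other genes with transcripts under 700 nt (horizontal), 1 point per library, shape by region and colour by stress. Both rise together, with mPFC CRS 1 at the top right (0.70 and 0.58) and mPFC naive 1 at the bottom left. Pseudogene rows of ribosomal proteins were not excluded from the other genes.

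The largest fold changes of any comparison, both in vHippo, belonged to Rps27 and Rpl17, which have near-identical copies elsewhere in the genome with rows of their own. Rps27, a zinc-binding small subunit protein, had a log2 fold change of -2.14 ± 0.57 (SE; edgeR adjusted p = 0.750) in vHippo under CRS. It read 20.4, 3.65 and 15.95 CPM (counts scaled to library size) in naive and 3.94, 2.71 and 2.32 in CRS libraries. In naive 1 and 3, where it was high, its retrogene row Rps27rt was low, at 3.44 and 3.18 CPM, against 10.2 to 14.8 in the other 4 vHippo libraries. Summed with Rps27rt, the values were 23.9, 16.7 and 19.1 in naive and 17.8, 12.9 and 17.1 CPM in CRS libraries, which overlapped.

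Over the 30 libraries of the 5 regions, Rps27 alone spanned a 17.7-fold range and the sum a 3.69-fold range. In mPFC CRS 1, Rps27 held 87.2% of the sum, and in mPFC CRS 2 16.4%. Rps27 also had the smallest p in the test of the CRS effect by region (unadjusted p = 0.0273, edgeR adjusted p = 1.0).

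Rpl17, a protein at the exit of the nascent peptide tunnel, had a log2 fold change of 1.55 ± 0.50 in vHippo (SE; edgeR adjusted p = 0.750), 1.11 ± 0.44 in NAc (SE; edgeR adjusted p = 1.0) and 0.76 ± 0.28 over the 5 regions (SE; edgeR adjusted p = 0.9999). In vHippo it read 14.6, 11.8 and 14.2 CPM in naive and 14.3, 73.1 and 32.15 in CRS libraries. Its pseudogene rows, 10 in this table, fell to 73.6 and 102 CPM in the CRS libraries 2 and 3, against 107 to 131 in the other 4 vHippo libraries. The sum was 146, 118.5 and 142 in naive and 144, 147 and 134 CPM in CRS libraries, which overlapped. Across the 30 libraries Rpl17 alone spanned a 9.67-fold range and the sum a 2.56-fold range. How reads were placed between a gene and its copies was not tested.

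**Figure D5:**
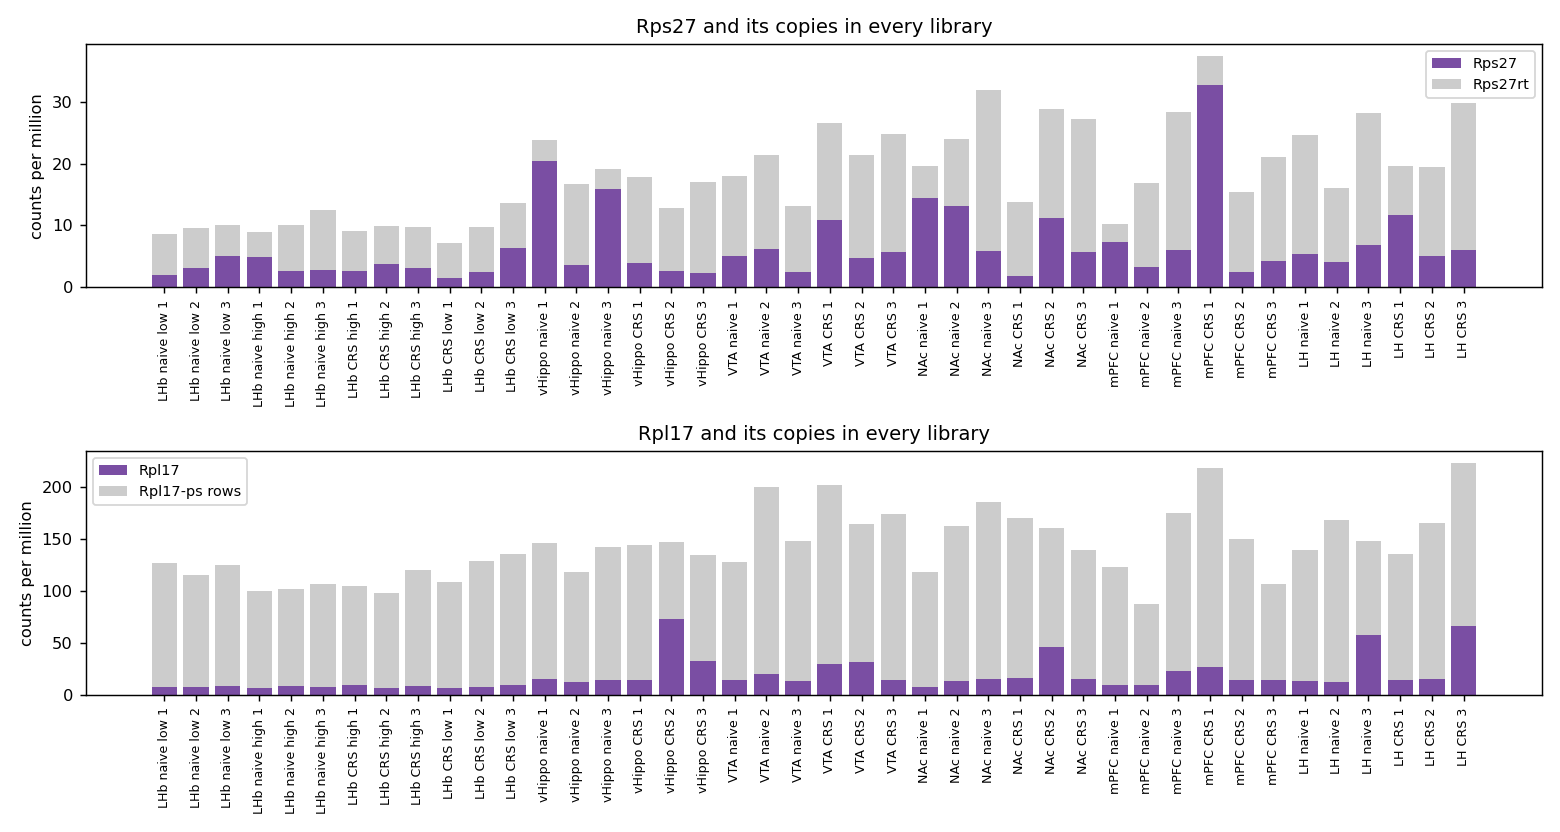
CPM of Rps27 with its retrogene Rps27rt (top) and of Rpl17 with its pseudogene rows (bottom), stacked, in each library. The share of the gene itself differs between libraries, as in vHippo CRS 2 for Rpl17, while the stacked totals differ less.

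Other members in the regions are given as values. In vHippo under CRS, Rpl7a (0.44 ± 0.27) and Rpl7 (0.10 ± 0.09) followed Rpl17 among positive log2 fold changes, and Rpl30 (-0.43 ± 0.13) and Rpl41 (-0.74 ± 0.26) followed Rps27 among negative ones (SE). In NAc, Rpl29 stood at 0.25 ± 0.14, Rpl18 at 0.19 ± 0.16, Rps15a at -0.31 ± 0.16, Rps12 at -0.36 ± 0.22 and Rps27 at -0.84 ± 0.59 (log2 fold change, SE). In mPFC, Rpl38 stood at 0.79 ± 0.52, Rps27 at 1.26 ± 0.88, Rpl29 at 0.47 ± 0.36, Rpl3l at -1.41 ± 1.55, Rps15a at -0.13 ± 0.18 and Rplp0 at -0.08 ± 0.24 (log2 fold change, SE). None of these members passed the edgeR test. In VTA under CRS, Rpl37 (0.60 ± 0.16) and Rpl36 (0.62 ± 0.20) had the smallest p among positive log2 fold changes (SE; edgeR adjusted p = 0.9998 for each), and Rps6 (-0.18 ± 0.16), Rplp0 (-0.12 ± 0.13) and Rpsa (-0.14 ± 0.19) among negative ones. The groups did not overlap for 12 members (14.8%), all higher under CRS, against 6.4% of all genes. In vHippo they did not overlap for 16 members (19.8%), 15 of them lower, against 14.4% of all genes. In LH, Rpl10, an X-linked protein of the large subunit, had a log2 fold change of 0.36 ± 0.14 (SE; edgeR adjusted p = 0.491), and was the 1 member whose groups did not overlap, against 14.9% of all genes. Rpl3 (0.22 ± 0.14), Rpl41 (0.45 ± 0.31), Rpl28 (-0.22 ± 0.13), Rpl37a (-0.34 ± 0.23) and Rps20 (-0.20 ± 0.16) were the others of smallest p in LH (log2 fold change, SE). Over the 5 regions together, Rpl10 (0.14 ± 0.08), Rpl21 (0.18 ± 0.12), Rpl3l (-0.70 ± 0.69), Rplp0 (-0.06 ± 0.07) and Rps20 (-0.07 ± 0.09) joined Rpl17. In the test of the CRS effect by region, Rps15a, Rpl35a, Rpl10, Rpl38, Rpl18, Rpl39, Rpl29, Rpl23a and Rpl41 followed Rps27, with unadjusted p from 0.142 to 0.394 (edgeR adjusted p = 1.0 for each). In NAc the groups did not overlap for 1 member, Rpl17, against 7.15% of all genes, and in mPFC for 0, against 5.23%. This was read on TMM-scaled values. In CPM scaled to library size alone, Rpl17 overlapped in NAc, with 15.34 in naive 3 and 14.96 in CRS 3.

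Members with known roles outside the ribosome, or of specialised use in it, passed in none of the 10 comparisons with a direction. Rpl5 and Rpl11, which bind Mdm2 and stabilise p53 when ribosome assembly fails, had log2 fold changes between -0.21 and 0.24 and between -0.08 and 0.20 over these comparisons, with smallest adjusted p of 0.613 and 0.860 (edgeR). Rpl13a, part of a complex that silences inflammatory messages, ran from -0.17 to 0.17, and Rps3, which also acts in DNA repair, from -0.11 to 0.19. Rpl10a, studied for uneven presence among ribosomes, ran from -0.08 to 0.09. Rpl38, required for translation of Hox messages in the mouse embryo, ran from -0.64 in vHippo to 0.79 in mPFC, with a smallest adjusted p of 0.741. Rpl22l1 ran from -0.30 to 0.46, with a smallest adjusted p of 0.414.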

How the data were processed

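Whole-number read counts and FPKM per gene were deposited by the authors, per the file headers, in 1 table for LHb and 1 for the 5 other regions. Per the submitters' processing notes, cutadapt 1.9, HISAT2 2.0.4, StringTie 1.3.4d and edgeR were used, with build GRCm39. Gene starts equalled GENCODE vM21 (GRCm38) for 2.18% of LHb genes and 99.5% of genes in the other table. Another 18 count columns matched no sample and were not used. How counts were taken is not stated. FPKM was scaled by the authors per library and was not tested.

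The members and lists were chosen with earlier results of these data known. Tests ran on the counts in R 4.3.3, with edgeR 4.0.16 as the main tool (TMM scaling, filterByExpr with a minimum count of 10, quasi-likelihood F test, two-sided), Benjamini-Hochberg adjusted over all genes tested, threshold 0.05. The 12 LHb libraries shared a fit, each other region had its own 6 libraries, and the 5 regions were also fitted together. Alternatives were DESeq2 1.42.0, its size factors, no filter, an offset for transcript length (lowess span 0.3), the replicate number as a block, each library left out, and LHb without pancreas (summed markers above 100 FPKM) or choroid plexus libraries (Ttr above 1000 FPKM). Overlap of groups was read on TMM-scaled log2 CPM with a prior count of 2. Named in each comparison were the members that passed, up to 10 per direction, or otherwise the 3 of smallest p per direction; 10 for regions; a fixed set by role; and the 5 highest and lowest levels. Some members that the rule named are not reported here. Fits were tested on simulated data. Start-site sequences are from RefSeq.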

Additional observations from a re-analysis of the deposited data

Results flagged for a closer look

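In the LHb CRS group of 6 libraries, 4 of the members examined had a library far from the others. Rpsa, the laminin receptor precursor of the small subunit, stood at 91.9 FPKM in CRS high 2, against 111 to 112 FPKM in the other 5 libraries. Rpl22 stood at 11.01 FPKM in the same library, against 13.6 to 14.8. Rpl32 stood at 28.1 FPKM in CRS low 1, against 37.6 to 42.9, and Rps29 at 3.10 FPKM in that library, against 5.09 to 6.18. CRS high 2 held 481 FPKM of pancreas markers, and CRS low 1 held 4389 FPKM of Ttr, and their part in these values was not tested. Chance flags about 1 in 20 groups, and 82 groups of values were examined. These did not cover every member, so others may have such a library too.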

How the results depend on the processing

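Counts of members past the threshold stayed at 0 in the 11 comparisons of stress and immobility under every alternative run, except that DESeq2 called 1 in the naive immobility comparison. For regions in naive mice, 2 members passed by edgeR, 7 by DESeq2, 1 without a filter on low counts, 4 with the transcript length offset, 3 with DESeq2 size factors and 1 to 8 when each library was left out. The 8 came without mPFC naive 3. With the CRS libraries in place of naive, 2 passed, neither of them Rps6 or Rps20. All genes called for regions in naive mice numbered 6138 by edgeR, 8480 by DESeq2 and 5277 without the filter. They numbered 6242 with the length offset, 6116 with DESeq2 size factors and 5676 with the replicate block. With the CRS libraries in place of naive they numbered 6883. Whether replicate numbers pair the libraries was not settled. Within no region did every same-numbered pair correlate above 0.1. In LHb 5 of 18 same-numbered pairs did, against 4 of 36 differently numbered pairs, and in VTA 0 of 3 against 2 of 6. Across regions, 6 of 30 same-numbered pairs of naive libraries did (r from -0.13 to 0.16). Of the 60 differently numbered pairs there, 6 did as well (r from -0.20 to 0.20). For CRS libraries across regions, 2 of 30 same-numbered and 5 of 60 differently numbered pairs did. The check across regions was added after seeing the data. With the replicate block 3 members passed for regions, Rps6, Rps2 (adjusted p = 0.0396) and Rps9 (0.0485), but not Rps20 (0.0833), and 0 passed in every other comparison.

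Over all genes, edgeR called 273 in LHb under CRS, 715 for naive immobility and 47 for the difference between the immobility effects, against 749, 1627 and 341 by DESeq2 and 2, 138 and 2 without the pancreas libraries. The length offset gave 137 in LHb under CRS, and leaving out choroid plexus libraries gave 97 for the difference. DESeq2 called 332 genes in LH, 36 in mPFC, 34 in vHippo, 7 in VTA and 2 in NAc, where edgeR called 0. For CRS over the 5 regions it called 36 and for CRS by region 35, where edgeR called 5 and 0. With the block, 8 genes passed over the 5 regions and 1 each in mPFC and LH. Of 996 alternative values of named log2 fold changes 6 reversed, none of a member that passed. Rpl14 in the difference between the immobility effects was -0.080 without pancreas libraries. With each library left out in turn, Rpsa in VTA ran from -0.31 to 0.0094, Rps27 in mPFC from -0.78 (without CRS 1) to 1.76 and Rplp0 in mPFC from -0.32 to 0.070. The causes were not tested. Small changes were not detectable: the median half-width of the 95% interval of a member was 0.74 on the log2 scale in mPFC and 0.20 in LHb under CRS.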
